A study of Mus musculus with 2 samples.

Results

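Solute carriers are membrane proteins that move sugars, lactate, amino acids, ions, nucleosides, vitamins and metabolites across the cell surface and the membranes of organelles. Their genes have symbols that begin with Slc and a family number, and 188 of the 354 such genes listed in the deposited tables are described here. A gene was a member when it reached at least 1 CPM (a read count scaled to the total of reads assigned to genes) in either library, and 1 gene was left out by rule. The level of a gene therefore chose it, and levels are given as descriptions. Of the other genes, 165 lay below the limit, and 128 of these had 0 counts in both libraries. Just inside the limit were Slc27a5 at 0 CPM in the library from knockout mice (DKO) and 1.03 CPM in the wild-type library (WT), Slc8a3 at 1.07 CPM in DKO and 0 in WT, and Slc6a12 at 0.966 CPM in DKO and 1.08 CPM in WT. Just outside it were Slc22a17 at 0.458 CPM in DKO and 0.897 CPM in WT, Slc2a2 at 0 in DKO and 0.852 CPM in WT, and Slc6a13 at 0.763 CPM in DKO and 0.224 CPM in WT.

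The RNA came from CD8+ regulatory T cells, a CD8+ T cell subset known for holding immune responses in check. Flow cytometry isolated them from the spleens of naive mice at 3 months of age, and they were not cultured. The DKO library came from mice of genotype Tgfbr2-/-Eomes-/-, which are labelled as lacking Tgfbr2, a TGF-beta receptor chain, and Eomes, a T-box factor active in effector and memory T cells, and the WT library came from wild-type mice. The labels give neither the sort markers, nor the number of mice per library, nor how the genes were deleted. Reads assigned to genes numbered 19661212 in the DKO library and 22307065 in the WT library. With 1 library per genotype there is no replicate check and no p-value. Each interval is an exact 95% Clopper-Pearson interval that covers counting error only, so it compares these libraries and not the genotypes.

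Resting lymphocytes keep few nutrient carriers at the surface, and activated ones install more glucose, amino acid and lactate carriers to feed growth. Glucose carriers of the Slc2 family let sugar run down its gradient, monocarboxylate carriers of the Slc16 family move lactate together with a proton, and the LAT-type amino acid carriers of the Slc7 family need a heavy chain partner to reach the membrane. Carriers of the Slc25 family sit in the inner mitochondrial membrane and link the cytosol with respiration.

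The targeted genes were checked first. Eomes had 3589 counts in the DKO library and 10292 in the WT library and was 2.61-fold lower, and Tgfbr2 had 4882 and 7825 counts and was 1.46-fold lower (interval 1.41 to 1.51). From here on CPM are scaled between libraries by TMM factors. The CD8 T cell markers were all counted in both libraries, with summed levels of 5609 CPM in the DKO library and 6227 CPM in the WT library. The median log2 ratio of those 5 markers was -0.15, and 0.09 when the libraries were scaled by T cell receptor genes. That scaling put the median of all genes at 0.23 in place of 0.00. Cd3d and Cd3e are both markers and scaling genes, so the second value is partly set by the scaling. Lists set as markers of other cell types, and the proliferation genes, summed higher in the DKO library. Genes counted as higher or lower were at least 2-fold apart with an interval without a ratio of 1. Among the 11720 genes compared, 11.6% were higher and 3.52% lower. Neutrophil markers reached 2627 CPM in the DKO library and 527 CPM in the WT library, with 6 of 8 at least 2-fold higher. Dendritic cell markers reached 3175 and 1133 CPM, with 7 of 8 higher. Myeloid markers reached 1678 and 857 CPM, with 3 of 7 higher, and every one of these 3 lists had all its listed genes counted in both libraries. NK cell markers reached 1009 and 606 CPM, with 4 of 7 higher and 6 of 7 log2 ratios above 0. Klre1 went the other way, with 93.1 CPM in the DKO library and 150 CPM in the WT library (1.61-fold lower, 1.52 to 1.71). CD4 and FOXP3 markers reached 160 and 35.3 CPM with 6 of 6 higher, and proliferation genes 336 and 93.6 CPM with 7 of 8 higher. Plasma cell markers reached 528 and 292 CPM with 2 of 5 higher and 1 lower. B cell markers reached 69.3 and 54.2 CPM with 1 of 7 higher (14.3%, near the share of all genes) and 1 lower. Erythroid and platelet markers reached 23.3 and 13.2 CPM with 2 of the 4 compared higher, while Hba-a1, Hba-a2 and Hbb-b1 were listed at 0 in both libraries. Non-unique alignments were left out, so 0 counts of such genes with near-identical copies do not show absence. Whether the sorted cells or other cells carried these reads was not tested, nor was their part in the results below. In sorted bulk RNA, fewer cells of a type and less RNA per cell cannot be told apart.

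Most solute carriers differed little between the libraries. To be called higher or lower, a gene needed levels at least 2-fold apart and an interval without a ratio of 1. By this limit 30 of the 188 members (16.0%) were higher in the DKO library and 7 (3.72%) lower, beside 11.6% higher and 3.52% lower among the 11720 genes compared. The level limit that chose the members favours genes that differ, since 8 of the higher members reached it in the DKO library only and 3 of the lower members in the WT library only. The 8 were Slc6a4, Slc7a11, Slc38a6, Slc8a3, Slc24a3, Slc41a2, Slc25a21 and Slc29a4, and the 3 were Slc1a4, Slc8a2 and Slc27a5. Among the 174 members that reached 1 CPM in both libraries, 22 were higher (12.6%) and 4 lower (2.30%), beside 7.46% and 1.88% of 10812 genes. The counts by substrate class and by gene list below stand beside these shares of all genes. The other 151 members met neither limit. Levels of 130 members lay within 1.5-fold, and the intervals of 52 held a ratio of 1. The median log2 ratio of DKO over WT was 0.06 over the members and 0.00 over all genes compared. Summed levels of the members were 8959 CPM in the DKO library and 8897 CPM in the WT library.

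**Figure D1:**
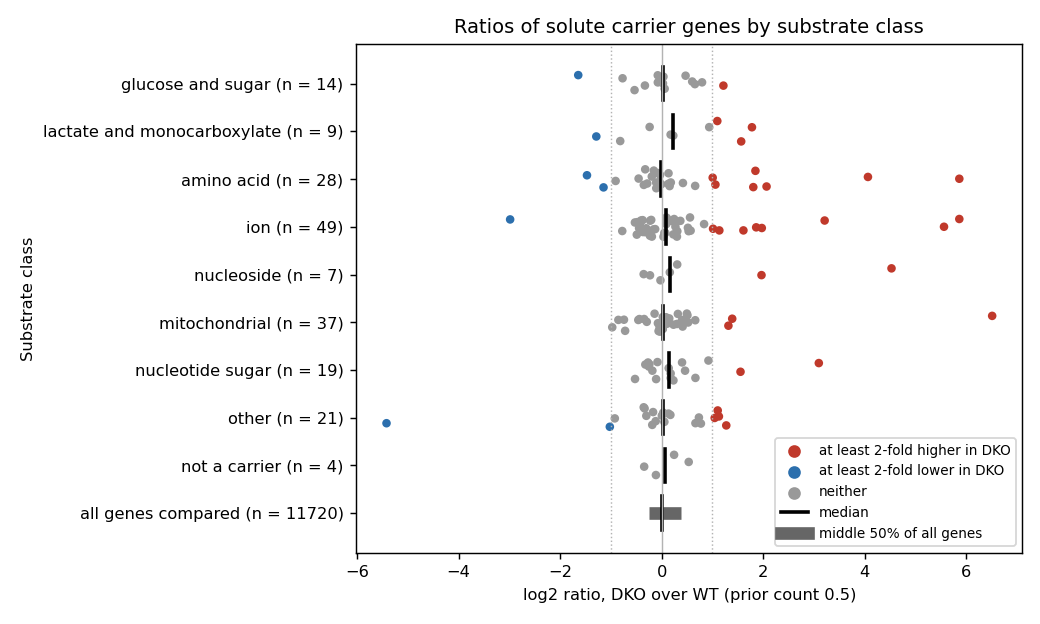
The log2 ratio of DKO over WT is plotted on the horizontal axis for each of the 188 solute carrier genes, grouped by substrate down the page, with a vertical bar at each class median and a thick bar for the middle range of all genes compared. Most points lie near 0, with class medians between -0.02 and 0.23, and the 30 higher and 7 lower genes stand out on either side.

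Calls were more common among scarce genes, for solute carriers as for all genes. Between 1 and 5 CPM in the mean of both libraries, 8 of 26 members were higher (30.8%), beside 32.7% of 1677 genes. Between 5 and 20 CPM, 10 of 45 members were higher (22.2%), beside 16.0% of 2431 genes. From 20 to 100 CPM these shares were 6.82% of 88 members and 3.44% of 4830 genes, and from 100 CPM up 1 of 22 members was higher (4.55%), beside 1.47% of 2387 genes. Of the 37 members past the limit, 15 lay under 5 CPM in both libraries. The member at 100 CPM or more was Slc40a1, an iron exporter.

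**Figure D2:**
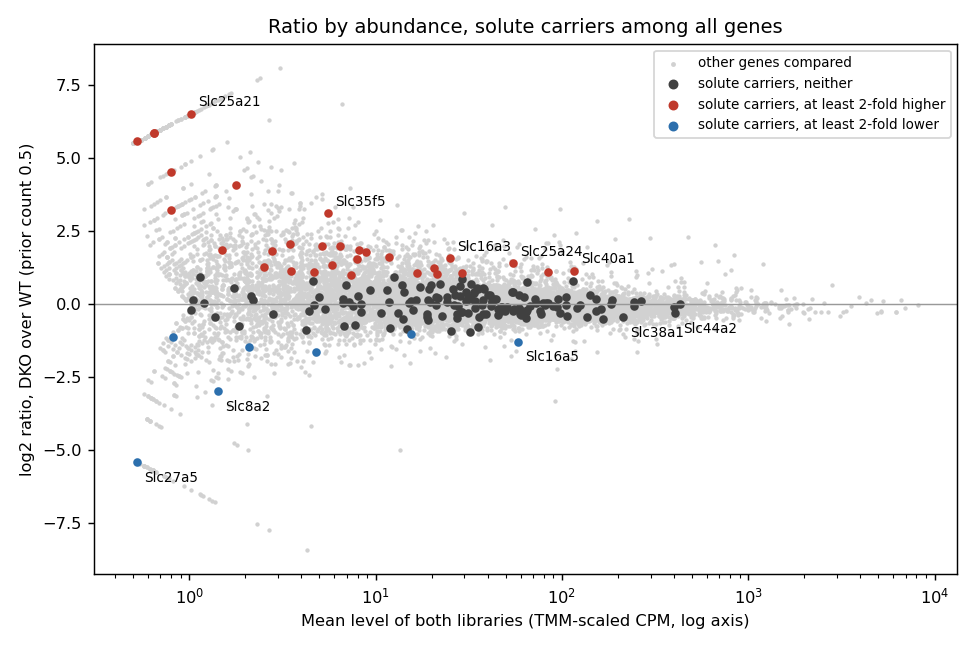
Each point is 1 gene, with the mean level of both libraries in CPM on a logarithmic horizontal axis and the log2 ratio of DKO over WT on the vertical axis. Grey points are the other genes compared. The solute carriers, in darker colours, narrow towards 0 with abundance as the other genes do, and Slc16a3, Slc25a24 and Slc40a1 are higher at 20 CPM or more.

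Of 14 sugar carriers, 1 was higher and 1 lower, with a median log2 ratio of 0.03 and summed levels of 558 CPM in the DKO library and 490 CPM in the WT library. All 5 facilitated glucose carriers of the Slc2 family had ratios above 0 under each scaling tried, with a median log2 ratio of 0.65, and their summed level was 287 CPM in the DKO library and 198 CPM in the WT library. Only Slc2a9, which carries urate as well as sugars, passed the 2-fold limit. Slc2a9 had 576 counts (28.8 CPM) in the DKO library and 272 counts (12.4 CPM) in the WT library, a 2.32-fold difference (2.01 to 2.69). Slc2a3, the high-affinity glucose carrier GLUT3, had 2904 counts (145 CPM) in the DKO library and 1837 counts (83.7 CPM) in the WT library, and was higher by 1.73-fold (1.64 to 1.84). It passed the 2-fold limit when the libraries were scaled by T cell receptor genes, with a log2 ratio of 1.03. Slc2a1, the basal glucose carrier GLUT1, had 1659 and 1778 counts, or 83.0 CPM in the DKO library and 81.1 CPM in the WT library, and its interval held 1 (0.957 to 1.10). Per kilobase of the longest coding transcript, Slc2a3 made up 59.0% of the summed level of Slc2a1 and Slc2a3 in the DKO library and 46.0% in the WT library, and by the median transcript length 69.6% in the DKO library and 57.4% in the WT library. Slc2a6, a carrier of lysosomal membranes, had 17.0 CPM in the DKO library and 10.8 CPM in the WT library. Slc2a8, an intracellular sugar carrier, had 13.5 CPM in the DKO library and 9.71 CPM in the WT library.

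The remaining 9 sugar carriers included 1 gene past the limit. Slc5a3, which brings in myo-inositol with sodium, had 46 counts (2.30 CPM) in the DKO library and 159 counts (7.25 CPM) in the WT library, and was 3.15-fold lower (2.26 to 4.47). Slc5a11, a second sodium-coupled inositol carrier, had 1.35 CPM in the DKO library and 2.32 CPM in the WT library. Of the Slc37 sugar phosphate carriers of the endoplasmic reticulum, Slc37a4, which takes up glucose 6-phosphate there, had 687 counts in the DKO library and 497 in the WT library (1.52-fold, 1.35 to 1.71). Slc37a2 had 15.7 CPM in the DKO library and 22.7 CPM in the WT library, and Slc37a1 68.8 and 86.5 CPM. Slc50a1, a sugar carrier of the SWEET family, had 73.4 CPM in the DKO library and 72.2 CPM in the WT library. It was the sugar carrier with the highest level per kilobase, at 71.8 CPM per kilobase in the DKO library and 70.6 in the WT library, when each gene's longest coding transcript set the length; with the median transcript length Slc2a3 was highest in both libraries.

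Among the 9 monocarboxylate carriers of the Slc16 family, 3 were higher and 1 lower, the median log2 ratio was 0.23, and the summed level was 178 CPM in the DKO library and 197 CPM in the WT library. Slc16a3 encodes MCT4, a lactate exporter of cells that run glycolysis fast. It had 748 counts (37.4 CPM) in the DKO library and 277 counts (12.6 CPM) in the WT library, 2.96-fold apart (2.58 to 3.41). Slc16a1, which encodes MCT1, a carrier of lactate and pyruvate in either direction, had 860 counts (43.0 CPM) in the DKO library and 1113 counts (50.7 CPM) in the WT library. Per kilobase of the longest transcript, Slc16a3 made up 47.0% of the sum of Slc16a1 and Slc16a3 in the DKO library, against 20.3% in the WT library. By the median transcript length the shares were 70.3% in the DKO library and 40.4% in the WT library, so which of the pair was larger in the DKO library depended on the length chosen. The promoter sequences of these 2 genes are shown because they are the pair of lactate carriers with unequal ratios, each as the 250 bases before the RefSeq start, 5′ to 3′ on the gene's strand. Slc16a3 lies on the plus strand with its window at chr11:120948817-120949066, and Slc16a1 on the plus strand with its window at chr3:104638414-104638663, both in the GRCm38.p6 build. Capitals mark ACGTG on either strand, a form of the hypoxia response core that is also contained in the E-box CACGTG. The form GCGTG was not searched and is not marked.
Slc16a3: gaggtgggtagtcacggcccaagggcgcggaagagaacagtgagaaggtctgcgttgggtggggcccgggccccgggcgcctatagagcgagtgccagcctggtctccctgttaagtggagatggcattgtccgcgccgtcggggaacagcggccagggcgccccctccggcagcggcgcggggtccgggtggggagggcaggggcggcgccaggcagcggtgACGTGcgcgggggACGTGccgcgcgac
Slc16a1: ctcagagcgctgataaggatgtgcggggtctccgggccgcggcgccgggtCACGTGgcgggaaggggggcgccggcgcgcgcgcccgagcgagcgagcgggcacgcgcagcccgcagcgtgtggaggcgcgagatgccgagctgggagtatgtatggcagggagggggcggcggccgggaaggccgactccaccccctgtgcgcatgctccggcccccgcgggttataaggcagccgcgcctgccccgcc
The Slc16a3 window holds ACGTG at 2 separate places near the start, and the Slc16a1 window holds it within 1 E-box. Because the form GCGTG was left out, these places do not compare the hypoxia response cores of the windows. RefSeq windows were found for 144 of the 188 members, 194 windows in all, because a gene can have several starts. The letters ACGTG were present in 21.6% of these, in 21.8% of the 10694 windows of genes compared, and in 16.6% of all 32851 windows. The E-box was in 11.9% of member windows, in 8.38% of windows of genes compared and in 6.02% of all windows.

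The other Slc16 genes split in both directions. Slc16a5, a family member without a well established substrate, had 675 counts (33.8 CPM) in the DKO library and 1810 counts (82.5 CPM) in the WT library, and was 2.44-fold lower (2.24 to 2.67). Per kilobase of the longest transcript it had the highest level of its family in both libraries, at 16.4 CPM per kilobase in the DKO library and 40.0 in the WT library, but by the median transcript length Slc16a3 was highest in the DKO library. Slc16a10, a carrier of aromatic amino acids, had 276 counts (13.8 CPM) in the DKO library and 88 counts (4.01 CPM) in the WT library, 3.44-fold apart (2.70 to 4.43). Slc16a9 had 127 counts (6.35 CPM) in the DKO library and 65 counts (2.96 CPM) in the WT library, 2.14-fold higher (1.58 to 2.94), and 19.6% of its 50-base windows also occur in transcripts of another gene. Slc16a13 had 8.60 CPM in the DKO library and 15.2 CPM in the WT library (1.76-fold lower, 1.46 to 2.13). Slc16a6 had 26.1 CPM in the DKO library and 22.2 CPM in the WT library, and 24.2% of its 50-base windows also occur in another gene. Slc16a7, the pyruvate carrier MCT2, had 30 counts in the DKO library and 17 in the WT library, and passed the limit by T cell receptor gene scaling with a log2 ratio of 1.17.

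**Figure D3:**
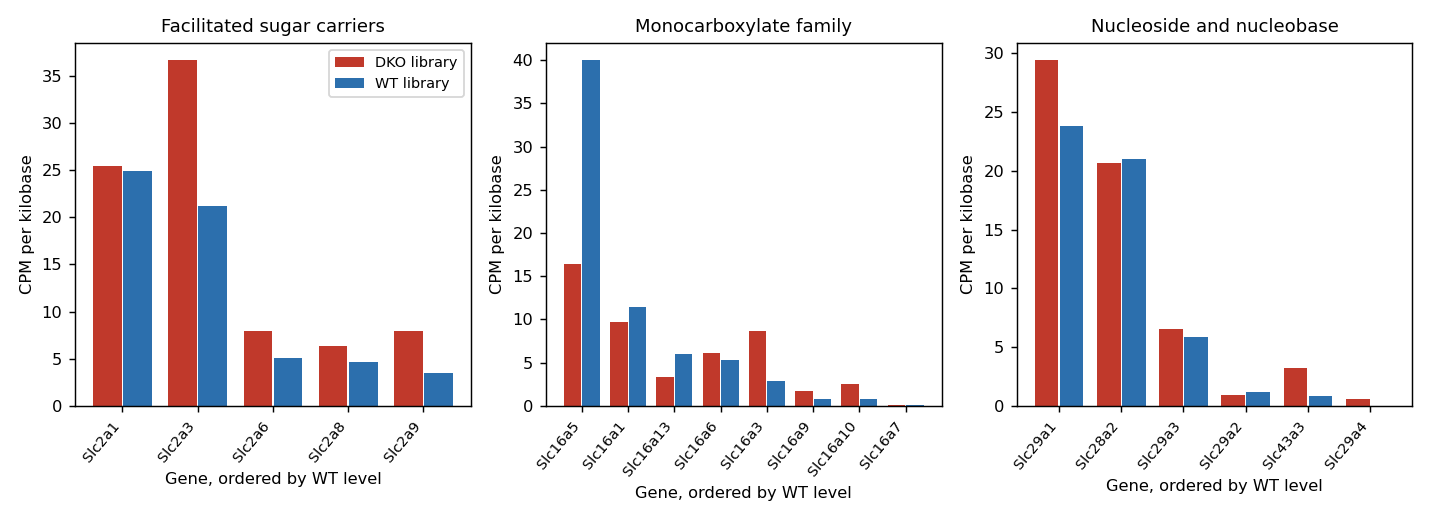
Bars give the level per kilobase of the longest coding transcript (TMM-scaled CPM per kilobase) in the DKO library, left in each pair, and the WT library for Slc2 glucose carriers, the Slc16 monocarboxylate carriers reported here and nucleoside or nucleobase carriers. Slc2a3 and Slc16a3 stand higher in the DKO library, Slc16a5 stands higher in the WT library, and Slc2a1 is nearly level.

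Most genes that partner, regulate or follow fuel carriers met neither limit, like most genes compared. Of 20 partners and regulators compared, 0 were higher and 0 lower, beside 11.6% and 3.52% of all genes compared. The share of all genes that were higher was 3.44% from 20 to 100 CPM and 1.47% from 100 CPM up. The median log2 ratio of the 20 was -0.07, which became 0.16 when the libraries were scaled by T cell receptor genes. Bsg encodes basigin, the chaperone that brings MCT1 and MCT4 to the membrane, and had 197 CPM in the DKO library and 277 CPM in the WT library (1.41-fold lower, 1.35 to 1.47). Emb, the related chaperone embigin, had 334 CPM in the DKO library and 466 CPM in the WT library. Myc, a transcription factor that drives nutrient carrier genes in activated T cells, had 98.8 CPM in the DKO library and 155 CPM in the WT library (1.56-fold lower, 1.48 to 1.65). Hif1a, the hypoxia response factor, had 96.1 CPM in the DKO library and 82.1 CPM in the WT library. Txnip, which draws glucose carriers off the surface, had 37500 counts in the DKO library and 35789 in the WT library. The 27 enzymes compared that use imported glucose, lactate or glutamine had a median log2 ratio of 0.05. Of these, 3 were higher (11.1%) and 0 lower, beside 11.6% and 3.52% of all genes compared. The 3 included Aldoc, an aldolase, with 82 counts in the DKO library and 11 in the WT library. The others were Bcat1, which transaminates branched-chain amino acids, with 30 and 0 counts, and Gpt2, which transaminates alanine, with 59 and 27 counts. Hk2, a hexokinase, had 14.9 CPM in the DKO library and 9.89 CPM in the WT library, and Ldha, which makes lactate, had 588 and 656 CPM. Of the enzymes listed, Gapdh had 38 counts in the DKO library and 50 in the WT library, and Eno1 had 0 in both. Non-unique alignments were left out, so low counts of enzyme genes with near-identical copies are uncertain.

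The amino acid class was mixed, and its 9 genes past the limit had at most 22.6 CPM (Slc15a3) in either library. The class was set by gene family, so it also holds the Slc15 peptide carriers and the serotonin carrier Slc6a4. Of 28 members, 7 were higher and 2 lower, and with 1 CPM required in both libraries the counts were 4 and 1 of 23. The median log2 ratio was -0.02, which became 0.03 by total gene counts and 0.21 by T cell receptor genes, and summed levels were 1478 CPM in the DKO library and 1554 CPM in the WT library. Slc3a2, the heavy chain CD98 that LAT-type Slc7 carriers need, had 3641 counts (182 CPM) in the DKO library and 4022 counts (183 CPM) in the WT library. It had the highest level per kilobase of the class, at 64.7 CPM per kilobase in the DKO library and 65.2 in the WT library. Its light chain Slc7a5, or LAT1, which imports leucine and other large neutral amino acids, had 52.1 CPM in the DKO library and 66.6 CPM in the WT library (1.28-fold lower, 1.18 to 1.38). Slc1a5, a glutamine importer, had 113 CPM in the DKO library and 126 CPM in the WT library. Among the SNAT carriers of glutamine and alanine, Slc38a1 had 3603 counts (180 CPM) in the DKO library and 5421 counts (247 CPM) in the WT library, 1.37-fold lower (1.31 to 1.43), while Slc38a2 had 160 CPM in the DKO library and 144 CPM in the WT library. Slc7a1, an importer of arginine and lysine, had 91.1 CPM in the DKO library and 98.1 CPM in the WT library. Slc6a6, the taurine carrier, had 123 CPM in the DKO library and 126 CPM in the WT library. Slc7a6, an arginine and leucine exchanger, had 49.1 CPM in the DKO library and 53.0 CPM in the WT library. Slc7a7, a related exchanger, had 170 counts in the DKO library and 118 in the WT library (1.58-fold, 1.24 to 2.02), and Slc1a3, a glutamate importer, had 46 counts in each library.

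The 9 genes of the amino acid class past the limit had low counts, with 22.6 CPM the highest level among them. Slc15a3, a lysosomal carrier of histidine and peptides, had 452 counts (22.6 CPM) in the DKO library and 238 counts (10.8 CPM) in the WT library, 2.08-fold higher (1.78 to 2.45). Slc15a2, the peptide importer PEPT2, had 112 counts (5.60 CPM) in the DKO library and 29 counts (1.32 CPM) in the WT library, 4.24-fold higher (2.80 to 6.61). Slc7a8, or LAT2, had 196 counts in the DKO library and 107 in the WT library, 2.01-fold higher (1.58 to 2.57), and it did not pass with a prior count of 5 in the log2 ratio. Slc6a19, a neutral amino acid importer best known from gut and kidney, had 87 counts in the DKO library and 27 in the WT library, and Slc6a4, the serotonin carrier, had 47 and 14 counts. Slc38a6 had 68 counts in the DKO library and 4 in the WT library, 18.7-fold higher (6.96 to 70.4), and 69.9% of its 50-base windows also occur in transcripts of another gene, so its count is uncertain. Slc7a2, an arginine importer, was lower with 22 counts in the DKO library and 68 in the WT library (2.82-fold, 1.72 to 4.79). Slc1a4, which exchanges alanine and serine, was lower with 10 and 25 counts (2.28-fold, 1.06 to 5.32), a call that was lost with a prior count of 5 or scaling by T cell receptor genes.

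Slc7a11 encodes xCT, which imports cystine in exchange for glutamate and feeds glutathione synthesis. It had 26 counts (1.30 CPM) in the DKO library and 0 counts in the WT library, and was at least 9.51-fold higher against the floor of 3 counts, which equals 0.137 CPM in the WT library. The exact interval of its ratio starts lower, at 7.20. It passed the level limit through the DKO library only, and in all 144 genes had at least 20 counts in the DKO library and 0 in the WT library, while 59 genes had the reverse. Its promoter is shown because the gene was at 0 in 1 library and its window holds several of the letters searched. The window is chr3:50443614-50443863 in GRCm38.p6, the gene is on the minus strand, and capitals mark the T-box core GGTGTGA and the ATF4 composite TGATGNAA on either strand.
Slc7a11: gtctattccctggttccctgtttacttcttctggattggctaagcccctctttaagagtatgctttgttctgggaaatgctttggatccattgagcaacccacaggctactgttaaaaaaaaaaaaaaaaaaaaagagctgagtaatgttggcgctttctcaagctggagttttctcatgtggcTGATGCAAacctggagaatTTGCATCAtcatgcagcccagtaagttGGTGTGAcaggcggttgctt
The window holds 2 ATF4 composites and 1 T-box core. The ATF4 composite was in 2.58% of member windows, 2.09% of windows of genes compared and 3.45% of all windows, and the T-box core in 3.61%, 2.75% and 3.33% of them. A SMAD palindrome, GTCTAGAC, was in 0 of the 194 member windows and in 0.187% of windows of genes compared. Of 17 amino acid response genes compared, 2 were higher and 0 lower, with a median log2 ratio of 0.09. Trib3, a pseudokinase that ATF4 induces, had 105 counts in the DKO library and 14 in the WT library (8.23-fold, 4.69 to 15.6), and Nupr1, a stress-induced nuclear protein, had 77 and 42 counts, a call lost with a prior count of 5. Atf4 itself had 246 CPM in the DKO library and 278 CPM in the WT library, and Ddit4 had 214 and 342 CPM (1.60-fold lower, 1.54 to 1.66).

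**Figure D4:**
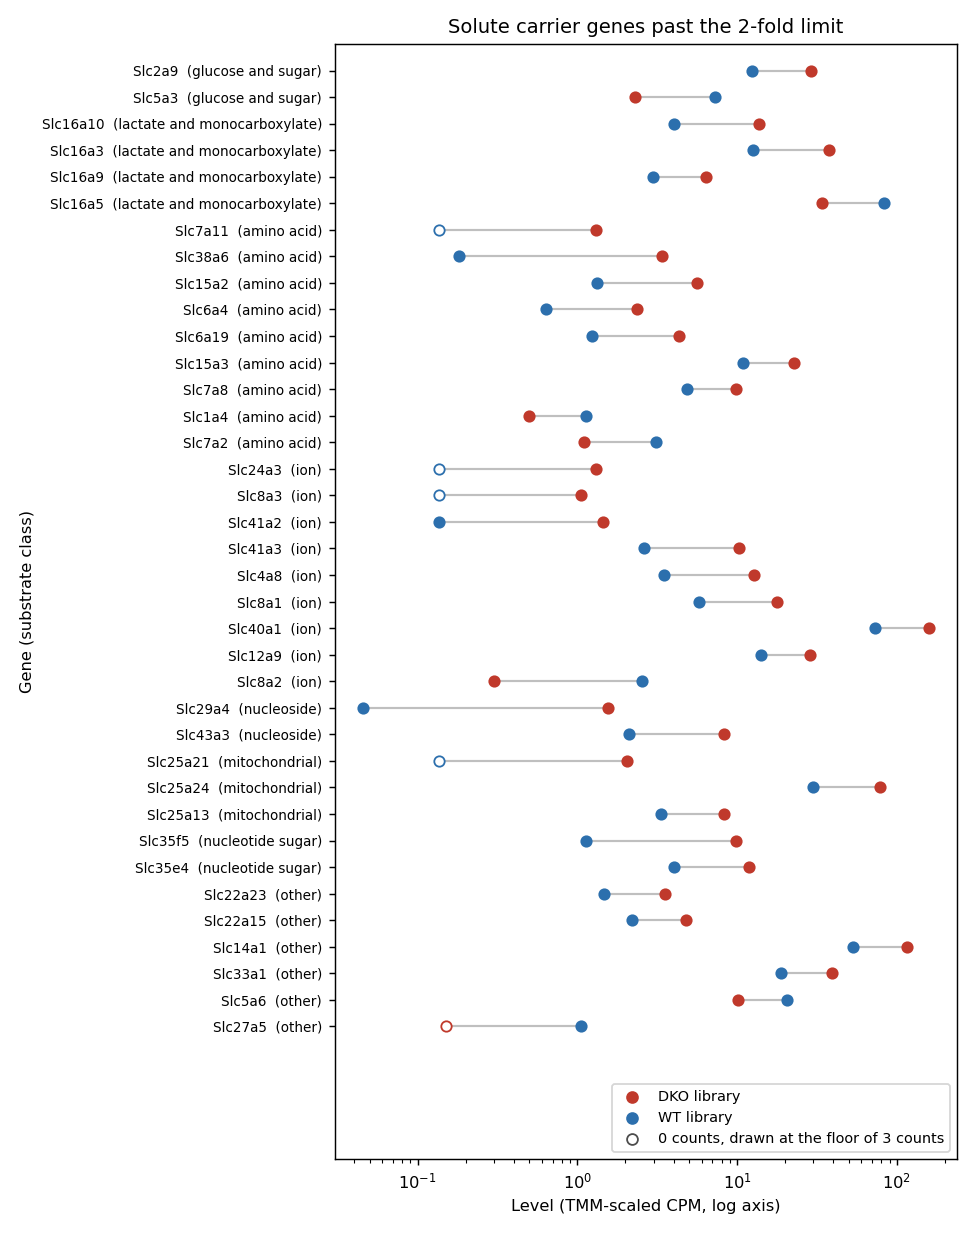
The 37 solute carrier genes past the 2-fold limit are listed with their substrate class, and each pair of points gives the TMM-scaled level in CPM on a logarithmic axis in the DKO library and the WT library. Open circles stand for 0 counts and are drawn at the floor of 3 counts. Slc40a1, Slc14a1 and Slc25a24 are the higher genes with the most counts, and Slc16a5 is the lower gene with the most.

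Ion carriers were the largest class, with 49 members, 8 higher (16.3%) and 1 lower (2.04%), beside 11.6% and 3.52% of all genes compared. With 1 CPM required in both libraries, 5 of 45 were higher (11.1%) and 0 lower, beside 7.46% and 1.88% of genes. The median log2 ratio of the 49 was 0.09, with summed levels of 2138 CPM in the DKO library and 2172 CPM in the WT library. Slc40a1 encodes ferroportin, the iron exporter of macrophages and other cells, and had 3185 counts (159 CPM) in the DKO library and 1591 counts (72.5 CPM) in the WT library, 2.20-fold higher (2.07 to 2.33). Slc11a1, an iron and manganese carrier of phagosomes in macrophages and neutrophils, had 833 counts (41.7 CPM) in the DKO library and 621 counts (28.3 CPM) in the WT library (1.47-fold, 1.32 to 1.64). Slc11a2, the iron importer DMT1, had 1836 counts in the DKO library and 2682 counts in the WT library, 1.33-fold lower (1.25 to 1.41). Per kilobase, Slc11a1 made up 46.4% of the sum of Slc11a1 and Slc11a2 in the DKO library and 30.6% in the WT library by the longest transcript, but 13.3% and 7.28% by the median transcript length. Among the 7 myeloid markers, Csf1r, the receptor for macrophage growth factor, had 329 CPM in the DKO library and 174 CPM in the WT library. Lyz2, lysozyme, had 19994 and 10857 counts. The 7 ratios of DKO over WT ran from 1.29 for Cebpb to 2.72 for Itgam, and 3 of the 7 were called higher. The part of these markers in the levels of Slc40a1 and Slc11a1 was not tested. Copper carriers Slc31a1 and Slc31a2 had 22.8 and 20.7 CPM in the DKO library, against 15.9 and 13.9 CPM in the WT library. Of the magnesium carriers, Slc41a3 had 205 counts in the DKO library and 57 in the WT library (3.95-fold, 2.93 to 5.39), Slc41a2 had 29 and 3 counts (10.6-fold, 3.29 to 54.4), and Slc41a1 had 857 and 907 counts. Altogether 3 of these 8 metal carriers were higher and 0 lower, and their summed level was 391 CPM in the DKO library and 297 CPM in the WT library.

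Of the 17 zinc carriers, 0 were higher and 0 lower, beside 11.6% and 3.52% of all genes compared. Among all genes at 20 to 100 CPM those shares were 3.44% and 0.497%. Of the 11 Slc39 genes, which bring zinc into the cytosol, 8 had ratios below 0, and their median log2 ratio was -0.21, which became 0.03 by T cell receptor genes. Slc39a7, which releases zinc from the endoplasmic reticulum, had 2708 counts (135 CPM) in the DKO library and 4285 counts (195 CPM) in the WT library, 1.44-fold lower (1.37 to 1.51), but 82.2% of its 50-base windows occur in transcripts of another gene, so its count is uncertain. Slc39a6 had 53.3 CPM in the DKO library and 74.9 CPM in the WT library, and Slc39a10 had 23.0 and 32.0 CPM. Slc39a1 had 44.2 CPM in the DKO library and 35.9 CPM in the WT library, and 21.8% of its 50-base windows also occur in another gene. The 6 Slc30 exporters had a median log2 ratio of 0.06, with summed levels of 253 CPM in the DKO library and 256 CPM in the WT library. Slc30a1, the exporter at the cell surface, had 38.2 CPM in the DKO library and 29.6 CPM in the WT library.

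**Figure D5:**
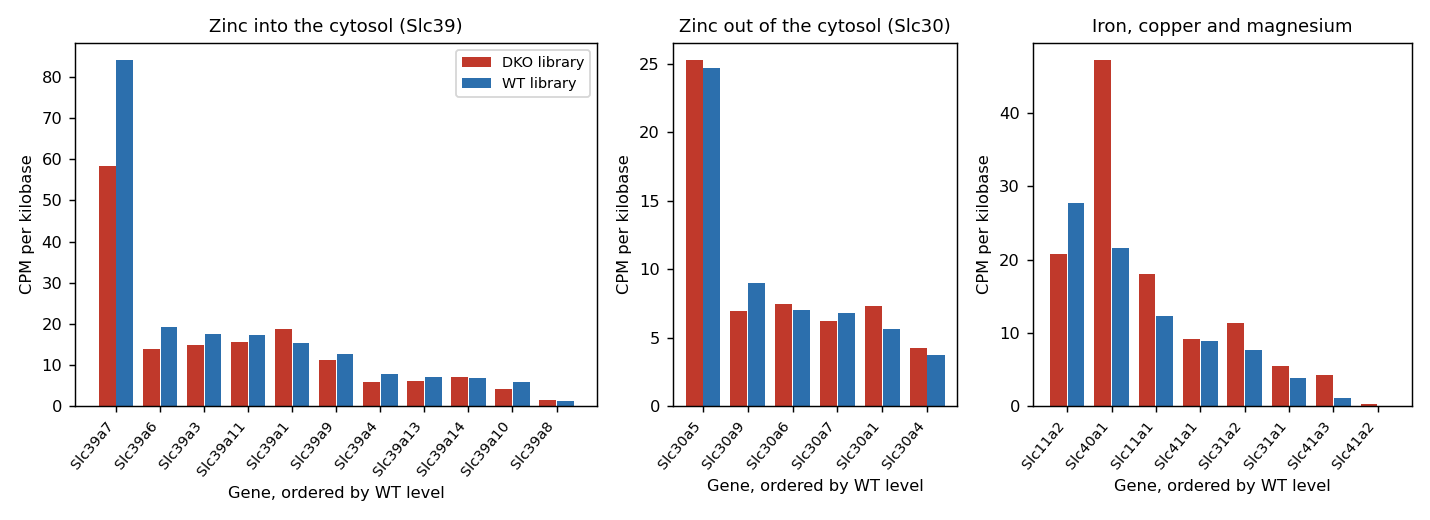
Bars give the level per kilobase of the longest coding transcript (TMM-scaled CPM per kilobase) in the DKO library, left in each pair, and the WT library for zinc importers, zinc exporters and carriers of iron, copper and magnesium. Slc39a7 is the zinc importer with the highest bars, and Slc40a1 is the bar with the widest gap in favour of the DKO library.

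The other 5 higher ion genes were carriers of calcium, bicarbonate or chloride and their relatives. Slc8a1, the sodium-calcium exchanger NCX1, had 354 counts (17.7 CPM) in the DKO library and 127 counts (5.79 CPM) in the WT library, 3.06-fold higher (2.49 to 3.78). Its relative Slc8a3 had 21 counts in the DKO library and 0 in the WT library, at least 7.68-fold higher against the floor, with an interval from 5.71. Slc24a3, a potassium-dependent calcium exchanger, had 26 counts in the DKO library and 0 in the WT library, at least 9.51-fold higher against the floor, with an interval from 7.20. Slc8a2 went the other way, with 6 counts in the DKO library and 56 in the WT library, 8.51-fold lower (3.67 to 24.2). Slc24a6, the mitochondrial calcium exchanger, had 44.8 CPM in the DKO library and 31.0 CPM in the WT library. Slc4a8, a sodium-driven bicarbonate exchanger, had 256 counts (12.8 CPM) in the DKO library and 77 counts (3.51 CPM) in the WT library, 3.65-fold higher (2.82 to 4.77). Slc4a7, a sodium bicarbonate importer that raises cell pH, had 37.2 CPM in the DKO library and 20.8 CPM in the WT library (1.78-fold, 1.59 to 2.01), and passed the limit by T cell receptor gene scaling with a log2 ratio of 1.07. Slc4a2, a chloride-bicarbonate exchanger, had 52.3 CPM in the DKO library and 67.9 CPM in the WT library. Slc12a9, a relative of the cation-chloride carriers, had 570 counts in the DKO library and 310 in the WT library, 2.02-fold higher (1.75 to 2.32). Slc12a7, a potassium-chloride carrier, had 195 CPM in the DKO library and 179 CPM in the WT library.

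The 6 sodium-proton exchangers and the 5 phosphate, sulfate and anion carriers met neither limit. Over all genes compared, 11.6% were higher and 3.52% lower. The 6 sodium-proton exchangers had a median log2 ratio of 0.02, with 3 ratios above 0 and 3 below, and summed levels of 270 CPM in the DKO library and 302 CPM in the WT library. Slc20a1, a sodium-phosphate importer, had 2300 counts (115 CPM) in the DKO library and 3438 counts (157 CPM) in the WT library, 1.36-fold lower (1.29 to 1.44). Slc26a11, a sulfate and chloride carrier, had 26.2 CPM in the DKO library and 44.9 CPM in the WT library (1.71-fold lower, 1.54 to 1.91). The 5 phosphate, sulfate and anion carriers had a median log2 ratio of -0.31, and -0.07 by T cell receptor genes.

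The mitochondrial carrier with the highest level per kilobase of the longest transcript was Slc25a3, at 266 CPM per kilobase in either library. Of 37 members, 3 were higher (8.11%) and 0 lower, beside 11.6% and 3.52% of all genes compared. With 1 CPM required in both libraries, 2 of 36 were higher (5.56%) and 0 lower, beside 7.46% and 1.88% of genes. The median log2 ratio of the 37 was 0.02, and summed levels were 2160 CPM in the DKO library and 2015 CPM in the WT library. Slc25a3, the phosphate carrier, had 8565 counts (428 CPM) in the DKO library and 9395 counts (428 CPM) in the WT library, with an interval of 0.971 to 1.03 for the ratio. The ADP/ATP carriers Slc25a4 and Slc25a5 had 275 and 250 CPM in the DKO library, against 259 and 240 CPM in the WT library. Slc25a5 made up 58.6% of their sum per kilobase in the DKO library and 58.9% in the WT library, though 46.6% of its 50-base windows occur in transcripts of other genes. Slc25a11, the oxoglutarate carrier of the malate-aspartate shuttle, had 156 CPM in the DKO library and 127 CPM in the WT library (1.23-fold, 1.17 to 1.30). The higher member with the most counts was Slc25a24, a calcium-controlled carrier of ATP-magnesium and phosphate, with 1573 counts (78.7 CPM) in the DKO library and 659 counts (30.0 CPM) in the WT library, 2.62-fold higher (2.39 to 2.87). Slc25a13, an aspartate-glutamate exchanger of the malate-aspartate shuttle, had 166 counts in the DKO library and 73 in the WT library, 2.49-fold higher (1.88 to 3.33). Its sister Slc25a12 had 104 CPM in the DKO library and 106 CPM in the WT library. Slc25a21, a carrier of oxoadipate, had 41 counts (2.05 CPM) in the DKO library and 0 counts in the WT library, at least 15.0-fold higher against the floor, with an interval from 11.7.

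Some mitochondrial carriers came near the limit from below. Slc25a37, mitoferrin, which brings iron into mitochondria of red cell precursors and other cells, had 432 counts (21.6 CPM) in the DKO library and 932 counts (42.5 CPM) in the WT library, 1.97-fold lower (1.75 to 2.21). Its relative Slc25a28 had 30.3 CPM in the DKO library and 41.1 CPM in the WT library. Slc25a15, the ornithine carrier, had 10.5 CPM in the DKO library and 19.0 CPM in the WT library (1.81-fold lower, 1.53 to 2.15). Slc25a10, the dicarboxylate carrier, had 24.4 CPM in the DKO library and 15.4 CPM in the WT library, and Slc25a20, the carnitine carrier, had 41.5 and 29.4 CPM.

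Nucleoside carriers numbered 7, with 2 higher and 0 lower, and with 1 CPM required in both libraries 1 of 6 was higher and 0 lower. The median log2 ratio of the 7 was 0.16, with summed levels of 238 CPM in the DKO library and 224 CPM in the WT library. Slc29a1, the equilibrative nucleoside carrier ENT1, had 1304 counts (65.2 CPM) in the DKO library and 1158 counts (52.8 CPM) in the WT library (1.24-fold, 1.14 to 1.34). Slc28a2, a concentrative carrier that takes up purine nucleosides and uridine, had 80.8 CPM in the DKO library and 82.2 CPM in the WT library, and 38.8% of its 50-base windows occur in transcripts of another gene. Slc43a3, an importer of purine nucleobases, had 165 counts (8.25 CPM) in the DKO library and 46 counts (2.10 CPM) in the WT library, 3.94-fold higher (2.82 to 5.58). Slc29a4, which carries monoamines and adenosine, had 31 counts in the DKO library and 1 in the WT library, a ratio of 34.0 (5.67 to 1386). Slc29a3, a nucleoside carrier of lysosomes, had 34.3 CPM in the DKO library and 30.7 CPM in the WT library, and Slc17a9, which loads nucleotides into vesicles, had 45.6 and 53.5 CPM. The proliferation genes given above summed to more in the DKO library, and their part in these levels was not tested.

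Nucleotide sugar and related carriers of the Slc35 family supply the Golgi, and 2 of the 19 were higher and 0 lower, with a median log2 ratio of 0.14. Slc35f5 had 198 counts (9.90 CPM) in the DKO library and 25 counts (1.14 CPM) in the WT library, 8.69-fold higher (5.72 to 13.8). Slc35e4 had 236 and 88 counts in the DKO and WT libraries (2.94-fold, 2.29 to 3.80). Slc35c1, the GDP-fucose carrier, had 139 CPM in the DKO library and 165 CPM in the WT library, and Slc35a1, the CMP-sialic acid carrier, had 26.0 and 31.2 CPM. Slc35b1, an ATP carrier of the endoplasmic reticulum, had 27.3 CPM in the DKO library and 17.2 CPM in the WT library (1.58-fold, 1.39 to 1.81). Slc35d2 had 16.4 CPM in the DKO library and 8.66 CPM in the WT library, and passed the limit by T cell receptor gene scaling with a log2 ratio of 1.15.

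The remaining 21 genes were of families that handle choline, heme, lipids, vitamins and organic ions. Of these, 4 were higher and 2 lower, with a median log2 ratio of 0.03. Slc14a1, the urea carrier best known from red cells and kidney, had 2299 counts (115 CPM) in the DKO library and 1174 counts (53.5 CPM) in the WT library, 2.15-fold higher (2.00 to 2.31). The erythroid marker Alas2 had 38 counts (1.90 CPM) in the DKO library and 20 (0.912 CPM) in the WT library, a call lost with a prior count of 5. Klf1, of the same list, had 59 and 39 counts and met neither limit. The part of these markers in the level of Slc14a1 was not tested. Slc33a1, which brings acetyl-CoA into the endoplasmic reticulum, had 780 counts (39.0 CPM) in the DKO library and 415 counts (18.9 CPM) in the WT library, 2.06-fold higher (1.83 to 2.33), with 35.1% of its 50-base windows shared with another gene. Slc22a15 had 96 and 48 counts and Slc22a23 71 and 32 counts in the DKO and WT libraries. Slc5a6, the carrier of biotin and pantothenate, had 203 counts (10.2 CPM) in the DKO library and 453 counts (20.7 CPM) in the WT library, 2.03-fold lower (1.72 to 2.41). That call was lost when the libraries were scaled by total gene counts, with a log2 ratio of -0.97, or by T cell receptor genes, with -0.79. Of the 50-base windows of Slc5a6, 22.3% also occur in transcripts of another gene. Slc27a5, a bile acid CoA ligase of liver, had 0 counts in the DKO library and 23 counts in the WT library, at least 6.99-fold lower against a floor of 0.150 CPM in the DKO library, with an interval from 5.24. Slc44a2, a choline carrier, was the most abundant of this class per kilobase, with 105 CPM per kilobase in the DKO library and 129 in the WT library. Slc27a1, a fatty acid carrier, had 117 counts in the DKO library and 75 in the WT library and passed the limit by T cell receptor gene scaling, with a log2 ratio of 1.00. Slc48a1, a heme carrier of lysosomes, had 1622 counts (81.1 CPM) in the DKO library and 1071 counts (48.8 CPM) in the WT library (1.66-fold, 1.54 to 1.80).

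A class of 4 members, scaffold or adaptor genes and a gene on the opposite strand, was set as non-carriers, and 0 of these were higher or lower. The heavy chain Slc3a2 and the ligase Slc27a5 were counted in carrier classes by gene family. Slc9a3r1, a scaffold that anchors the exchangers, had 7715 counts (386 CPM) in the DKO library and 9164 counts (418 CPM) in the WT library. Slc7a6os, a gene on the opposite strand of a carrier gene, had 34.1 CPM in the DKO library and 28.8 CPM in the WT library. Of 35 transport genes named outside the Slc symbols, 3 were higher and 2 lower, with a median log2 ratio of 0.17. Spns3, a relative of lipid carriers, had 141 counts in the DKO library and 16 in the WT library (9.67-fold, 5.75 to 17.4). Slco4a1, an organic anion carrier, had 126 counts in the DKO library and 56 in the WT library, and Mfsd8, a lysosomal carrier, had 265 and 134 counts. Mfsd2a, which imports lysophosphatidylcholine, was lower with 42 counts in the DKO library and 94 in the WT library, a call lost by total gene counts, by T cell receptor genes or with a prior count of 5. Nipa1, a magnesium carrier, had 1 count in the DKO library and 25 in the WT library (22.8-fold lower, 3.73 to 936).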

How the data were processed

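Total RNA of sorted cells was made into libraries with an Illumina total RNA kit and sequenced as 50-base single-end reads, per the labels' protocols. The authors deposited raw read counts for each gene. Tools and build, per the submitters' processing notes, were TopHat2 2.0.8b, HTSeq, bcl2fastq and mm9, with no roles given. The annotation, the filters and the strand setting are not given in the sources, so reads of overlapping genes on opposite strands cannot be told apart. In each table, 5 rows that name no gene were left out; non-unique alignments made up 64.8% of the DKO total and 66.4% of the WT total, so genes with near-identical copies are uncertain.

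Library sizes were adjusted with edgeR 4.0.16 in R 4.3.3 by TMM, with factors of 1.02 for DKO and 0.983 for WT. A gene was compared when either library held it at 1 CPM or more. Log2 ratios had a prior count of 0.5 added, and fold changes are plain ratios of scaled counts. For each gene the DKO share of its counts was given an exact 95% Clopper-Pearson interval with scipy 1.17.1, which was then expressed as a ratio. The reads carry no molecular identifiers, so these intervals and the floors of 3 counts per library cover counting error only. With 1 library per genotype no model of variation between animals could be fitted. Lengths came from GENCODE transcripts of GRCm38, as the longest coding transcript, and 50-base windows shared with other genes were counted there. The scripts were tested on simulated data.

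The members, substrate classes, marker lists and other lists were chosen with earlier results of these data known. Named genes were every member past the limit, up to 6 per class with the largest ratio at 5 CPM or more, up to 6 per class with the highest level per kilobase in WT, 3 genes on each side of the level limit, all Slc1, Slc2, Slc3, Slc7, Slc16, Slc28 and Slc29 genes and up to 4 genes per other list with the largest ratio, plus fixed regulators. Chosen for their role, or to complete a small count, after their values were seen were Alas2, Aldoc, Bcat1, Cebpb, Eno1, Gapdh, Gpt2, Klf1, Mfsd2a, Nipa1, Nupr1, Slc4a2, Slc5a11, Slc6a6, Slc11a1, Slc24a6, Slc25a10, Slc25a12, Slc25a20, Slc26a11, Slc30a1, Slc31a1, Slc31a2, Slc39a1, Slc39a6, Slc39a10 and Slc41a1. Some genes that the rule gives are counted in the totals but not reported here. Alternatives were scaling by total counts, by DESeq2 1.42.0 size factors or by T cell receptor genes, other level limits, 1.5-fold and 4-fold limits, and a prior count of 5.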

Additional observations from a re-analysis of the deposited data

How the results depend on the processing

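No paired analysis was possible because each genotype has 1 library, and for the same reason no replicate could be left out. DESeq2 size factors, total gene counts, a prior count of 5 and a minimum on the mean of both libraries kept the higher and lower counts over all genes and over all members within 1.5 times, and the median of each substrate class within its genes' median interval width. By total gene counts or with a prior count of 5, the higher or lower count of a single class or list moved by at most 1 gene. Scaling by T cell receptor genes moved the median log2 ratio to 0.23 for all genes, 0.29 for the members, 0.21 for amino acid, 0.26 for glucose and sugar, 0.32 for ion, 0.25 for mitochondrial, 0.30 for non-carrier, 0.39 for nucleoside, 0.37 for nucleotide sugar and 0.26 for other genes. With no filter on low values 692 genes and 14 members were lower, and the medians were 0.58 for monocarboxylate and -0.084 for nucleotide sugar carriers. With 5 CPM in either library 745 genes and 19 members were higher, 145 genes and 3 members were lower, and the non-carrier median was -0.11. With 1 CPM required in both libraries, chosen after the data were seen, 807 genes were higher, and 203 genes and 4 members were lower. At a limit of 1.5-fold 2073 genes were higher and 977 lower, and 16 members were lower. At 4-fold 515 genes and 9 members were higher, and 130 genes and 2 members lower. The cause of these shifts was not tested, beyond fewer or more genes passing each limit. Of 173 named genes, 0 past the limit changed sign under the alternatives run on single genes (scaling and prior count).

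Depth limits the scarce members: 15 of the 37 past the limit lay under 5 CPM in both libraries, where a gene at 0 counts can reach only the floor of 3 counts.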

Other observations

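Of the 165 solute carrier genes below the level limit, 37 had counts, 31 of them in the DKO library and 19 in the WT library, summing to 187 counts in the DKO library and 154 in the WT library. More counts were seen in the DKO library for 24 of them and in the WT library for 13, and no fold is given because most lie near the floor of 3 counts. Slc26a1, an anion exchanger, had 14 counts in the DKO library and 0 in the WT library, and Slc36a3 had 15 and 0. Slc2a2, the glucose carrier GLUT2 of liver and pancreas, had 0 counts in the DKO library and 19 in the WT library, and Slc3a1, the heavy chain of the kidney cystine carrier, had 0 and 11. These genes were named after their values were seen. Of the 15 sugar carriers below the limit, 13 had 0 counts in both libraries, as did 34 of 42 ion carriers and 29 of 41 genes of the amino acid class.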
